A study of Homo sapiens with 8 samples.

Results

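Pre-mRNA splicing is guided by proteins that bind the transcript and by the small nuclear ribonucleoproteins that assemble on it. The 48 genes described here encode 4 groups of such proteins, the SR proteins (SRSF genes), the heterogeneous nuclear ribonucleoproteins (HNRNP genes), the SF3A and SF3B subunits of the U2 small nuclear ribonucleoprotein, and the 2 subunits of the auxiliary factor U2AF. They were selected by gene name among the 20030 gene rows of the series, with earlier results of these data known. A row was taken when its symbol was SRSF followed by a number, began with HNRNP, was SF3A or SF3B followed by a number, or was U2AF1 or U2AF2. This gave 12 SRSF, 25 HNRNP, 3 SF3A, 6 SF3B and 2 U2AF genes.

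The series holds 8 RNA-seq libraries of HCT-116, an established human colorectal carcinoma cell line, after transient transfection with small interfering RNAs (siRNAs). There were 2 libraries with the control siRNA (siNC), 3 after knockdown of HHEX, a homeobox transcription factor (siHHEX), 2 after joint knockdown of the transcriptional coactivators YAP and TAZ, encoded by YAP1 and WWTR1 (siYAP/TAZ), and 1 after joint knockdown of the DNA-binding factors TEAD1 to TEAD4 that carry YAP and TAZ (siTEAD1/2/3/4). The study asked whether HHEX works with the YAP-TEAD complex. Per the methods, each siHHEX library received a different HHEX siRNA and each siYAP/TAZ library a different pair, so that the spread within these groups includes the difference between siRNAs, and a knockdown lowers a gene without removing it. The labels do not say whether the 2 siNC libraries came from separate cultures, and the spread between them may be technical. In the series, the sample of siHHEX 3 is numbered apart from the run of the others. Whether it was prepared together with them and with the controls is not stated.

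HHEX was at 8.60 and 9.06 FPKM (fragments scaled by the length of the gene and the total of the library) in siNC and at 3.25, 3.54 and 1.85 FPKM in siHHEX 1 to 3. YAP1 was at 20.2 and 19.7 FPKM in siNC and at 6.90 and 8.39 FPKM in siYAP/TAZ, and WWTR1 at 6.80 and 6.72 against 2.64 and 2.58 FPKM. In siTEAD1/2/3/4, TEAD4 was at 5.56 FPKM against a siNC mean of 20.8, TEAD1 at 9.02 against 18.6 and TEAD2 at 2.73 against 3.78, whereas TEAD3 was at 9.08 against 7.18 FPKM and was not lower. The siHHEX libraries were also unequal in YAP1, at 5.77, 17.4 and 6.93 FPKM, so that siHHEX 2 lay near siNC and the other two near siYAP/TAZ. TEAD1 was at 6.99, 10.2 and 5.30 FPKM in siHHEX, below its level in siTEAD1/2/3/4 in siHHEX 1 and siHHEX 3. In siYAP/TAZ, TEAD4 was at 12.5 and 13.6 FPKM and HHEX at 4.80 and 7.12 FPKM, all below both controls. Of the markers of colorectal epithelium, EPCAM, KRT8, KRT18, KRT19, CDH1 and CDX2 were present in every library, whereas LGALS4 and VIL1 did not exceed 0.132 FPKM. Of 11 markers of fibroblasts, leukocytes and endothelial cells, the highest were COL1A1 at 0.647 to 2.04 FPKM and LYZ at 0.0306 to 1.52 FPKM.

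SR proteins bind exonic enhancers through RNA recognition motifs and recruit the splicing machinery through domains rich in arginine and serine. The hnRNP proteins coat nascent transcripts and often act as silencers of nearby splice sites. U2AF recognises the polypyrimidine tract and the AG at the 3′ end of the intron, and SF3A and SF3B hold U2 snRNA on the branch site. Many SR and hnRNP genes are known to tune their own mRNA through poison exons, which a single value per gene cannot show.

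Base composition ran alongside the changes described below, so that a 90-base stretch of coding sequence is shown for the 2 genes with the most negative and the 2 with the most positive change among those called in siHHEX. Each stretch was picked as the one whose G and C share came nearest to that of the whole transcript, so that it illustrates that share and adds nothing to it. The sequences are of GENCODE transcripts on GRCh38, 5′ to 3′ on the coding strand, with G and C in capitals. SRSF11 lies on chromosome 1, from 70205682 to 70253052 on the plus strand, and bases 280 to 369 of its coding sequence hold 40% G and C. SRSF10 lies on chromosome 1, from 23964347 to 23980927 on the minus strand, and bases 601 to 690 hold 35.6%. SF3B2 lies on chromosome 11, from 66050729 to 66069308 on the plus strand, and bases 499 to 588 hold 54.4%. SF3B5 lies on chromosome 6, from 144094884 to 144095573 on the minus strand, and bases 79 to 168 hold 56.7%.
SRSF11: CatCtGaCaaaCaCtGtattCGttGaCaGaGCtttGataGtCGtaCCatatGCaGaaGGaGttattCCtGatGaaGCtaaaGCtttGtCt
SRSF10: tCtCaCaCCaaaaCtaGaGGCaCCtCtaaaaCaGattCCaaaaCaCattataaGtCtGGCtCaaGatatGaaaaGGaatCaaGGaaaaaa
SF3B2: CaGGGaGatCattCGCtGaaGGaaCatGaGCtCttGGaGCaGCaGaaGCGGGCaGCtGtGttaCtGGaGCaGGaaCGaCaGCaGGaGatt
SF3B5: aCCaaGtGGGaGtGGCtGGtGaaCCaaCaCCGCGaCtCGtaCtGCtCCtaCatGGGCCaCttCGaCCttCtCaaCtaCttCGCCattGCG
The whole transcripts held 39.6% in SRSF11, 35.9% in SRSF10, 54.9% in SF3B2 and 56.5% in SF3B5, and the coding sequences alone 47.7%, 44.0%, 56.1% and 57.8%.

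These genes were abundant in control cells. A gene was tested when it reached 1 FPKM in at least 2 libraries, which 10677 genes did, and 43 of the 48 splicing factor genes passed. Their median siNC level was 83.7 FPKM, against 7.34 FPKM over all tested genes, and together the 48 genes took 1.35% of the summed FPKM in siNC. The hnRNP genes led, with a median of 116 FPKM, followed by SF3B at 91.0, SRSF at 58.5, U2AF at 55.8 and SF3A at 55.5 FPKM. HNRNPA1, which encodes one of the most abundant hnRNP proteins, headed the order at 477 ± 16 FPKM (SD, n = 2), 1.54 times the next gene, HNRNPAB, at 309.6 ± 6.70 FPKM. HNRNPK at 267 ± 5.63 and HNRNPA2B1 at 258 ± 1.70 FPKM followed. Further down, SRSF2 at 169.8 ± 3.70 and HNRNPF at 169.7 ± 2.93 FPKM did not differ beyond their spread, and neither did SRSF1 and U2AF2, both at 109 FPKM. At the low end of the tested genes stood HNRNPH2 at 2.43 ± 0.0551, U2AF1 at 2.85 ± 3.38 and HNRNPA1L2 at 3.32 ± 0.108 FPKM.

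The 5 genes that were not tested were HNRNPCL1, HNRNPCL2, HNRNPCL3 and HNRNPCL4, copies related to HNRNPC that were listed at 0 in every library, and SRSF12, listed at 0 except for 0.0332 FPKM in siHHEX 2 and 0.0106 FPKM in siHHEX 3. Near-identical copies make some values uncertain. Of the 50-base words of the HNRNPA1L2 transcript, 45.7% also occur in HNRNPA1. The share was 97.0% for HNRNPCL4 with the other splicing factor transcripts.

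In siHHEX, 15 of the 43 tested genes were lower than in siNC and 2 were higher, at an adjusted p under 0.05. Over all 10677 tested genes 16.9% were lower and 16% higher. The lower genes were the SR protein genes SRSF1, SRSF2, SRSF3, SRSF6, SRSF7, SRSF10 and SRSF11, the hnRNP genes HNRNPA1, HNRNPA2B1, HNRNPDL, HNRNPF, HNRNPH1, HNRNPK and HNRNPR, and SF3B1. SF3B2 and SF3B5 were higher. The median change of the 43 genes was -0.26 on the log2(FPKM + 1) scale, on which every change here is given and which understates that of low genes, against -0.0055 over all tested genes. These calls rested on both controls. Without siNC 1 none of the 43 genes was called, and without siNC 2 U2AF1 alone was, when all tested genes together gave 9 lower and 10 higher calls and 12 lower and 15 higher calls. In these fits the lone control was assumed to vary like the other groups. The GC and length correction takes from each library a smooth trend on transcript GC content and length. It also brings the libraries to a common average level. With it, 1 gene was lower (SRSF2) and 1 higher (HNRNPC), against 3.17% and 3.56% of all genes, and the median was -0.12. A lower FPKM in a bulk sample can mean fewer cells with the transcript or less of it per cell, which cannot be told apart here.

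**Figure D1:**
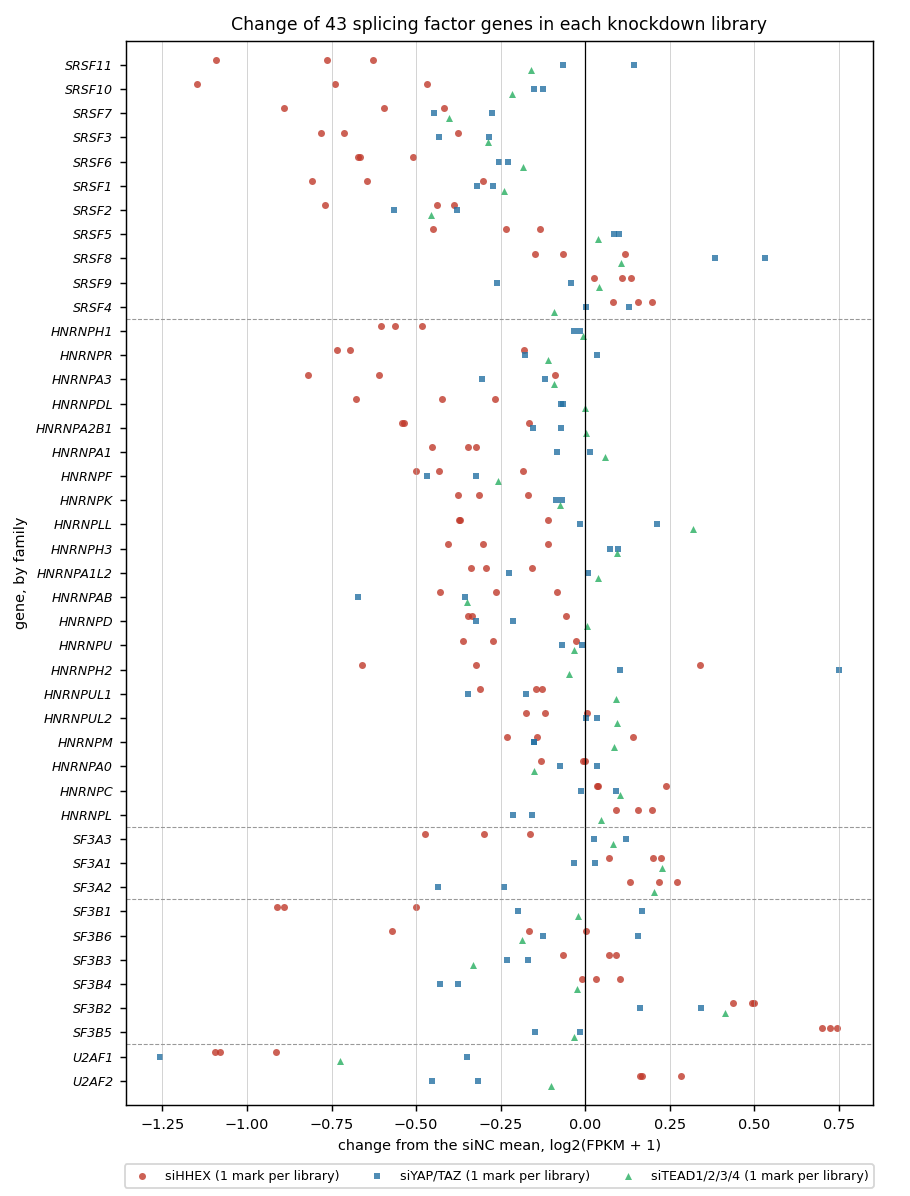
Change of each of the 43 tested genes from the siNC mean on the log2(FPKM + 1) scale (horizontal axis), with genes ordered by family and by siHHEX change (vertical axis) and 1 mark per knockdown library. The siHHEX marks of the uppermost 7 SRSF genes and of SF3B1 all lie below 0, and those of SF3B2 and SF3B5 all lie above 0.

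Among the SR protein genes, 7 of 11 were lower in siHHEX and none was higher, with a median change of -0.59, where 16.9% of all tested genes were lower. With the GC and length correction 1 was lower and the median was -0.19. The corrected changes of SRSF11, SRSF10, SRSF3, SRSF7, SRSF6 and SRSF1 were -0.40, -0.26, -0.19, -0.29, -0.19 and -0.12, and none of these 6 was called. SRSF11, an SR-related protein that associates with U2AF, was at 16.8 and 17.2 FPKM in siNC, at 9.62, 10.7 and 7.46 in siHHEX, at 16.2 and 18.9 in siYAP/TAZ and at 15.1 in siTEAD1/2/3/4. Every siHHEX library lay below every other library. Its siHHEX change was -0.83 (SE 0.16, adjusted p = 0.00834). SRSF10, a splicing repressor regulated by its phosphorylation, was at 16.6 and 15.5 FPKM in siNC, at 9.22, 11.3 and 6.69 in siHHEX, at 14.6 and 14.4 in siYAP/TAZ and at 13.7 in siTEAD1/2/3/4. Again the siHHEX libraries were the lowest, with siHHEX 3 lowest of all and a change of -0.79 (SE 0.18, adjusted p = 0.0147).

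SRSF3, the smallest of the classical SR proteins, was at 160 and 156 FPKM in siNC, at 96.1, 122 and 91.5 in siHHEX, at 130 and 117 in siYAP/TAZ and at 129 in siTEAD1/2/3/4. No knockdown library reached the controls, and siHHEX 2 fell among the siYAP/TAZ libraries. The siHHEX change was -0.62 (SE 0.13, adjusted p = 0.0118). SRSF7, which like SRSF3 couples splicing to mRNA export, was at 60.5 and 56.4 FPKM in siNC, at 38.4, 43.5 and 31.1 in siHHEX, at 48.1 and 42.6 in siYAP/TAZ and at 44.0 in siTEAD1/2/3/4. The groups did not overlap with siNC, and siHHEX 2 lay between the siYAP/TAZ libraries. Its change in siHHEX was -0.63 (SE 0.15, adjusted p = 0.0149). SRSF6, named after its values were seen for its close replicates, was at 153 and 147 FPKM in siNC and at 93.9, 105 and 94.3 in siHHEX, a change of -0.61 (SE 0.10, adjusted p = 0.00627).

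SRSF2, which binds exonic enhancers and is recurrently mutated in myeloid neoplasms, was at 172 and 167 FPKM in siNC, at 125, 130 and 99.2 in siHHEX, at 130 and 115 in siYAP/TAZ and at 124 in siTEAD1/2/3/4. All 6 knockdown libraries lay below both controls. The siHHEX change was -0.53 (SE 0.13, adjusted p = 0.0182), and with the GC and length correction it was -0.60 (adjusted p = 0.0366). SRSF9, the most abundant SR protein gene of siNC, was at 196 and 192 FPKM there, at 197, 209 and 213 in siHHEX, at 188 and 161 in siYAP/TAZ and at 199 in siTEAD1/2/3/4. It was not called in either comparison. SRSF4, SRSF5 and SRSF8 were not called in siHHEX either, with changes of 0.14, -0.27 and -0.03. Summed over the family, SRSF transcripts were at 954 ± 20.4 FPKM in siNC (SD, n = 2), 733 ± 64.0 in siHHEX (n = 3), 804 ± 43.9 in siYAP/TAZ (n = 2) and 831 in siTEAD1/2/3/4.

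**Figure D2:**
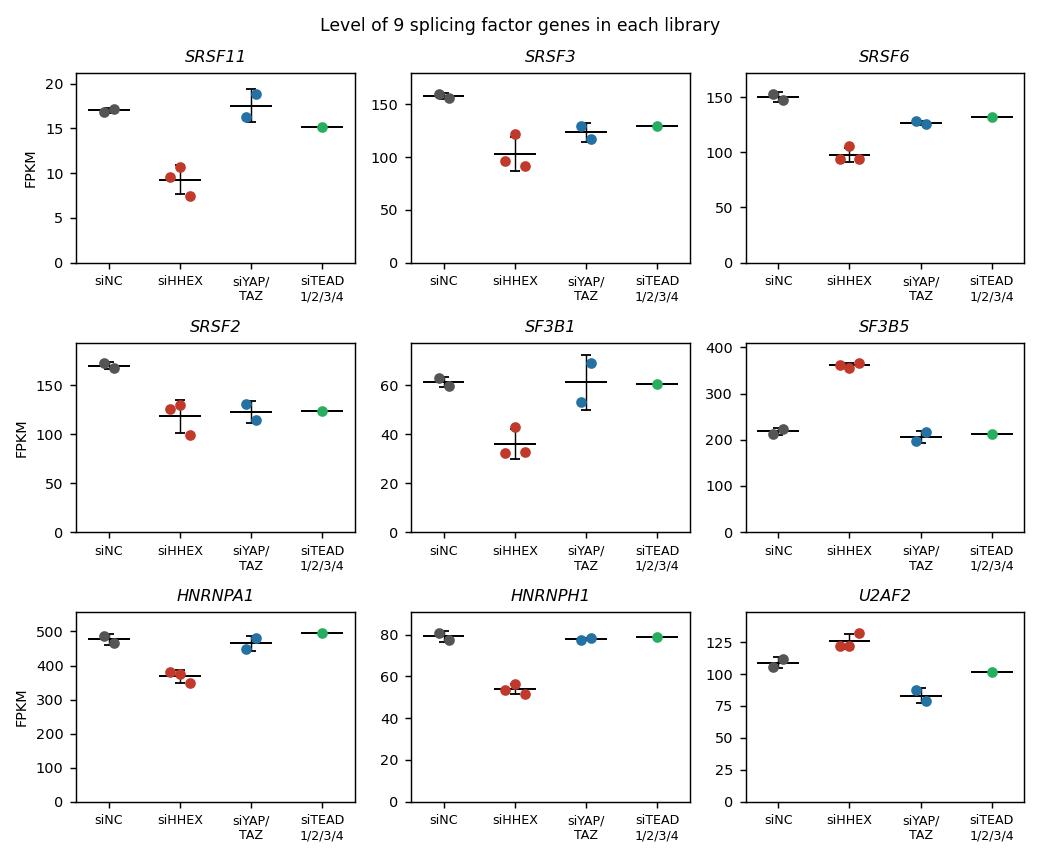
FPKM (vertical axis, from 0) of 9 genes in each library by group (horizontal axis), with 1 point per library, horizontal bars for group means and error bars for the SD where a group has at least 2 libraries. SRSF2 lies below the controls in all 6 knockdown libraries, and SF3B5 lies above them in the 3 siHHEX libraries, at 355 to 366 FPKM.

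For the hnRNP genes, 7 of 21 were lower in siHHEX and none was higher, with a median change of -0.26, where 16.9% of all tested genes were lower. With the GC and length correction none was lower, 1 was higher and the median was -0.018. HNRNPA1, a repressor of exon inclusion that also shuttles mRNA, was at 488 and 465 FPKM in siNC, at 381, 375 and 348 in siHHEX, at 450 and 481 in siYAP/TAZ and at 497 in siTEAD1/2/3/4. The siHHEX libraries lay below all others, siNC and siYAP/TAZ overlapped, and siTEAD1/2/3/4 was the highest. The siHHEX change was -0.37 (SE 0.09, adjusted p = 0.0159), and -0.056 (adjusted p = 0.701) after the correction. HNRNPH1, which binds runs of G and was named after its values were seen, was at 81.0 and 77.5 FPKM in siNC, at 53.4, 56.4 and 51.8 in siHHEX, at 77.5 and 78.3 in siYAP/TAZ and at 78.9 in siTEAD1/2/3/4. The siHHEX libraries stood apart from all others, by -0.55 (SE 0.10, adjusted p = 0.0081), and by -0.31 (adjusted p = 0.0599) after the correction.

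The other 5 lower hnRNP genes changed by -0.54 for HNRNPR, -0.46 for HNRNPDL, -0.41 for HNRNPA2B1, -0.37 for HNRNPF and -0.29 for HNRNPK. After the correction none of these 5 was called. HNRNPA2B1 and HNRNPK then had the opposite sign, at 0.03 and 0.04, HNRNPR was at -0.0040, HNRNPDL at -0.26 and HNRNPF at -0.23. HNRNPAB, a paralogue of HNRNPD, was at 314 and 305 FPKM in siNC, at 258, 292 and 230 in siHHEX, at 242 and 194 in siYAP/TAZ and at 243 in siTEAD1/2/3/4. No knockdown library reached the controls, but neither comparison passed (adjusted p = 0.145 in siHHEX and 0.0581 in siYAP/TAZ). HNRNPC, which binds runs of U, was at 194 and 196 FPKM in siNC and at 200, 230 and 200 in siHHEX. Its change was 0.10 (adjusted p = 0.437), and 0.49 (adjusted p = 0.016) after the correction.

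The SF3 subunits moved in both directions. SF3B1, the large subunit that contacts the branch site and the most often mutated splicing factor of several cancers, was at 62.9 and 59.9 FPKM in siNC, at 32.2, 43.1 and 32.7 in siHHEX, at 53.4 and 69.1 in siYAP/TAZ and at 60.5 in siTEAD1/2/3/4. Every siHHEX library lay below all others, while siNC fell within the range of siYAP/TAZ. The siHHEX change was -0.77 (SE 0.16, adjusted p = 0.0109), and -0.35 (adjusted p = 0.107) after the correction. SF3B5, a small subunit of the complex encoded by a gene without introns, was at 213 and 223 FPKM in siNC, at 361, 355 and 366 in siHHEX, at 197 and 216 in siYAP/TAZ and at 213 in siTEAD1/2/3/4. Its siHHEX libraries stood far above the rest with little spread, at a change of 0.72 (SE 0.09, adjusted p = 0.00384), which was 0.23 (adjusted p = 0.133) after the correction.

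SF3B2, a subunit that binds pre-mRNA next to the branch site, was at 84.3 and 83.1 FPKM in siNC, at 114, 118 and 119 in siHHEX, at 93.9 and 106 in siYAP/TAZ and at 112 in siTEAD1/2/3/4. All 6 knockdown libraries lay above both controls, and siHHEX passed the test (0.48, SE 0.10, adjusted p = 0.0116), which was 0.30 (adjusted p = 0.0824) after the correction. SF3B6, the subunit near the branch site adenosine, was at 141 and 137 FPKM in siNC, at 124, 139 and 93.3 in siHHEX, at 128 and 155 in siYAP/TAZ and at 122 in siTEAD1/2/3/4. The siHHEX and siYAP/TAZ groups overlapped with siNC, and the siTEAD1/2/3/4 library lay below both controls. SF3B3 and SF3B4 changed in siHHEX by 0.03 and 0.04 and were not called. Summed SF3B transcripts were at 630 ± 9.17 FPKM in siNC (SD, n = 2) and 763 ± 25.7 in siHHEX (n = 3), of which SF3B5 was the largest share.

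None of the 3 SF3A genes was called in siHHEX or siYAP/TAZ. SF3A2 was at 64.2 and 67.7 FPKM in siNC, at 72.3, 79.7 and 76.8 in siHHEX, at 55.7 and 48.5 in siYAP/TAZ and at 76.0 in siTEAD1/2/3/4. The siHHEX libraries lay above the controls and the siYAP/TAZ libraries below them. SF3A3 was at 57.2 and 53.7 FPKM in siNC, at 39.6, 49.4 and 44.8 in siHHEX, at 56.4 and 60.3 in siYAP/TAZ and at 58.7 in siTEAD1/2/3/4, with siHHEX below the rest (adjusted p = 0.0742).

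U2AF2, the large subunit that reads the polypyrimidine tract, was at 106 and 112 FPKM in siNC, at 122, 122 and 132 in siHHEX, at 87.1 and 79.1 in siYAP/TAZ and at 101 in siTEAD1/2/3/4. Its siHHEX libraries were the highest and its siYAP/TAZ libraries the lowest, although neither differed from siNC by the test (adjusted p = 0.146 and 0.0651). U2AF1, the small subunit that reads the AG, was listed at 5.24 and 0.459 FPKM in siNC, at 0.602, 0.412 and 0.428 in siHHEX, at 1.37 and 0.262 in siYAP/TAZ and at 0.828 in siTEAD1/2/3/4. siNC 1 stood above every other library, siNC 2 lay among the knockdown libraries, and neither comparison passed (adjusted p = 0.131 in siHHEX and 0.37 in siYAP/TAZ).

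The U2AF1 values are uncertain, because GRCh38 holds a second copy of the gene on chromosome 21. U2AF1 lies there from 43092956 to 43107570 on the minus strand, and the coding part of each of its 8 exons was found exactly 2 times on the chromosome. Exon 2, at chr21:43104315-43104402, is shown because all of its 88 bases also occur at chr21:6495993-6496080, and the coding strand is given in lower case.
U2AF1 exon 2: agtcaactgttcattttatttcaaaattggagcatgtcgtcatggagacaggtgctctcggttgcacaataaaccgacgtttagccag
The row of that second copy, U2AF1L5, was at 1.64 and 1.02 FPKM in siNC, at 1.74, 1.87 and 2.71 in siHHEX, at 1.36 and 8.28 in siYAP/TAZ and at 1.26 in siTEAD1/2/3/4. In siYAP/TAZ 2 it was high where U2AF1 was low. Reads from 1 gene could have been placed on either copy or discarded, and the part this played was not tested.

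The siHHEX libraries were unequal for these genes. Their median change over the 43 genes was -0.32 in siHHEX 1, -0.11 in siHHEX 2 and -0.36 in siHHEX 3, and over the SRSF genes alone -0.59, -0.37 and -0.77. Of the 43 genes, 25 had every siHHEX library below both controls and 9 had every one above, and 9 overlapped, against 33.8% below and 33.1% above over all tested genes. The library with the smallest change in these genes, siHHEX 2, was also the one with YAP1 near the control level, and whether the 2 are linked was not tested.

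GC content moved with the siHHEX changes. The 43 genes were poorer in GC than the rest, with a median of 43.1% in the transcript against 49.1% over 10616 tested genes with a reference transcript. The 15 lower genes had a median of 40% (35.1% to 49.6%), and the 2 higher genes one of 55.7%. Across the 43 genes, Spearman's rho of change with GC content was 0.676, 0.491 and 0.688 in siHHEX 1 to 3, a description over genes that share their libraries, and over all genes it was 0.679, 0.599 and 0.755. In siYAP/TAZ the mean change had a rho of -0.225 across the 43 genes. GC content and length together accounted for 47.3%, 34.3% and 57.3% of the variance of all genes' changes in siHHEX 1 to 3, for 2.22% and 0.668% in siYAP/TAZ 1 and 2, for 8.99% in siTEAD1/2/3/4 and for 5.95% of the difference between the controls. Such a trend can come from library preparation or from the cells, which cannot be told apart here.

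Set against genes of like GC content, the splicing factor genes stood as follows. Of the 12 with under 40% GC, 8 were lower, where 45.8% of all such genes were. From 40% to 45% GC, 4 of 10 were lower (32.6% of all such genes), and from 45% to 50%, 3 of 7 were (12.8%). From 50% to 55% GC none of 10 was lower and SF3B2 was higher, where 2.92% of all such genes were lower and 17.7% higher. At 55% and above none of 4 was lower and SF3B5 was higher, where 1.06% were lower and 37.1% higher.

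**Figure D3:**
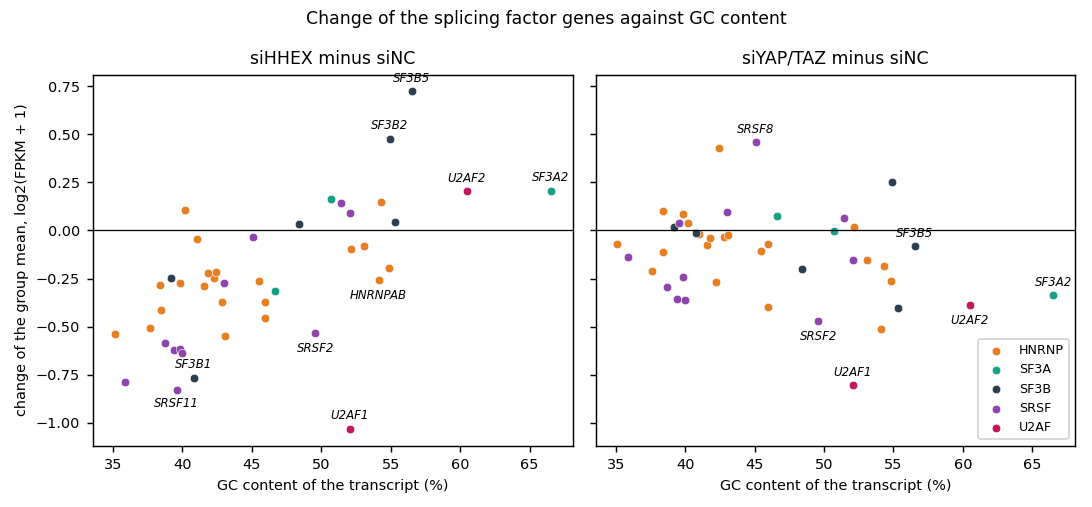
Change of the group mean from siNC on the log2(FPKM + 1) scale (vertical axis) against the GC content of the transcript in percent (horizontal axis) for the 43 genes, coloured by family, in siHHEX (left) and siYAP/TAZ (right). In siHHEX the points tend to climb with GC content, with U2AF1 apart, and in siYAP/TAZ they do not climb. Apart from U2AF1, the siHHEX changes ranged from SRSF11 at -0.83 (39.6% GC) to SF3B5 at 0.72 (56.5% GC). The genes richest in GC, SF3A2 (66.5%) and U2AF2 (60.5%), lay at 0.21 and 0.20 in siHHEX.

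In siYAP/TAZ none of the 43 genes was lower and none higher at an adjusted p under 0.05, where 2.13% and 6.15% of all tested genes were. At an unadjusted p under 0.05 in the same limma fit, 7 were lower and 2 higher, where 7.85% and 19.4% of all tested genes were. The median change was -0.083, against 0.082 over all tested genes. Scaling each library to an equal median turned the split of all calls from 227 lower and 657 higher into 345 and 333, and then 4 of the 43 genes were lower. The same scaling turned the siHHEX split from 1806 lower and 1712 higher into 1440 and 2210 (13.5% and 20.7%), and then 11 of the 43 genes were lower in siHHEX instead of 15, without HNRNPA2B1, HNRNPF, HNRNPK and HNRNPR, and the same 2 were higher. Of the 43 genes, 21 had both siYAP/TAZ libraries below both controls and 5 had both above, against 24.8% and 42.9% over all tested genes.

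With the GC and length correction, 6 of the 43 genes were lower in siYAP/TAZ and none higher, against 6.14% and 5.31% of all genes. These were SRSF1, SRSF2, SRSF3, HNRNPF, SF3B4 and U2AF2, with corrected changes of -0.40, -0.53, -0.45, -0.46, -0.47 and -0.47. The correction also centres each library, and the siYAP/TAZ median over all tested genes moved from 0.082 to -0.020 with it. The median of the 43 genes was -0.19 with the correction and likewise -0.19 with median scaling alone. How far the 6 calls came from this centring or from GC content and length was not tested. SRSF1, the prototype SR protein and a proto-oncoprotein, was at 110 and 107 FPKM in siNC, at 69.1, 88.0 and 61.7 in siHHEX, at 87.0 and 89.9 in siYAP/TAZ and at 91.9 in siTEAD1/2/3/4. SF3B4, which binds RNA upstream of the branch site, was at 93.5 and 103 FPKM in siNC, at 97.5, 106 and 101 in siHHEX, at 75.5 and 72.7 in siYAP/TAZ and at 96.6 in siTEAD1/2/3/4. SRSF1 was below the controls in all 6 knockdown libraries and SF3B4 only in the siYAP/TAZ libraries.

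**Figure D4:**
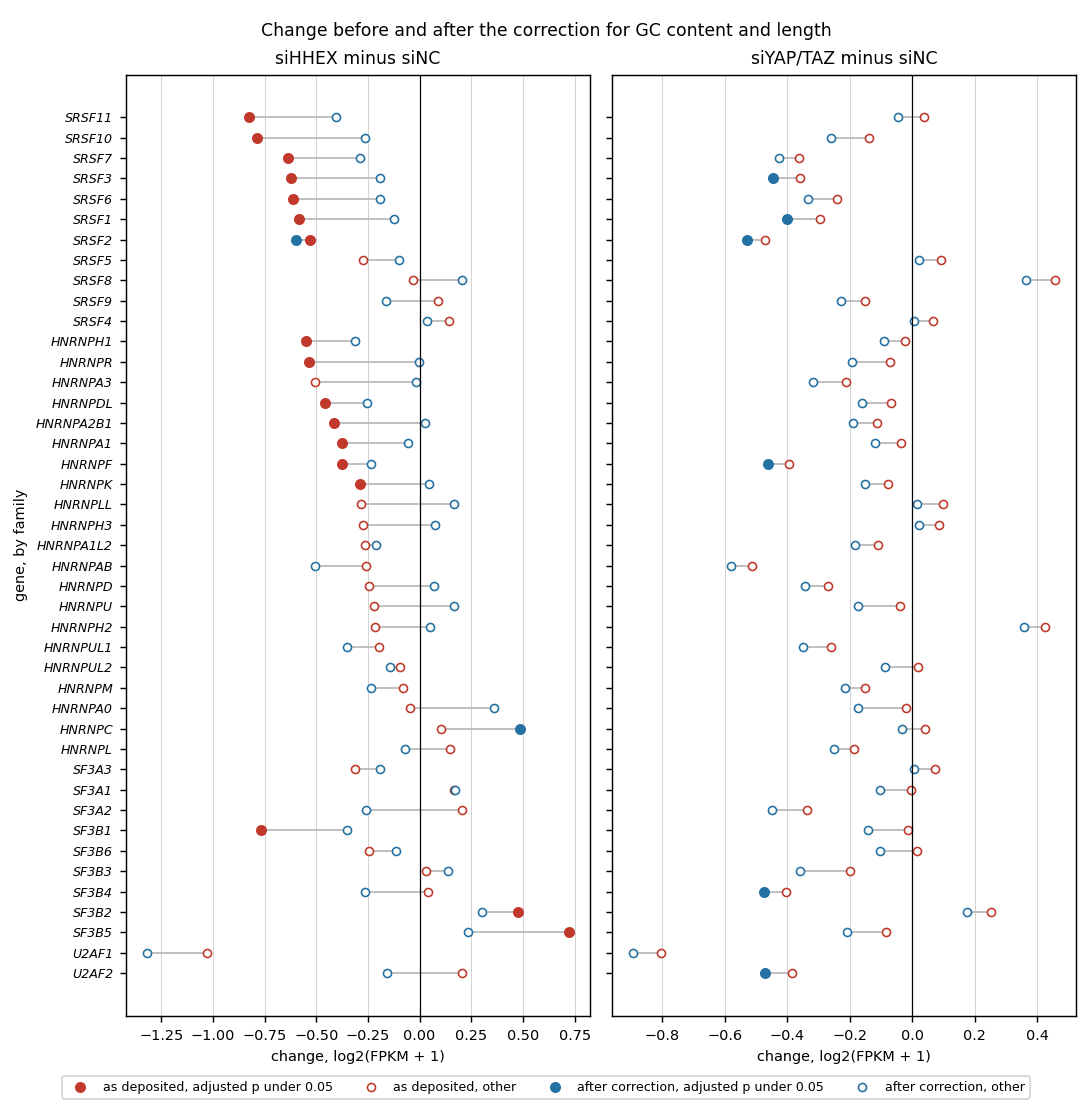
Change from siNC on the log2(FPKM + 1) scale (horizontal axis) of the 43 genes by family (vertical axis) as deposited and after the GC and length correction, with filled points for an adjusted p under 0.05. In siHHEX the filled points go from 17 to 2, and in siYAP/TAZ from 0 to 6.

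Setting the 2 knockdowns against each other, in a contrast from which the shared controls cancel, 11 of the 43 genes were lower in siHHEX than in siYAP/TAZ and 5 were higher. Over all tested genes 25.9% were lower and 13.5% higher, and the median difference was -0.13. With each library scaled to an equal median, 3 of the 43 genes were lower and 10 higher, against 13.0% and 23.5% of all genes. The lower genes were SRSF5, SRSF6, SRSF8, SRSF10, SRSF11, HNRNPA1, HNRNPDL, HNRNPH1, HNRNPH3, SF3A3 and SF3B1, and the higher ones HNRNPL, SF3A2, SF3B4, SF3B5 and U2AF2. The largest differences were -0.87 for SRSF11 (SE 0.16, adjusted p = 0.0056), -0.75 for SF3B1 (SE 0.16, adjusted p = 0.00898) and 0.81 for SF3B5 (SE 0.09, adjusted p = 0.00282). SRSF1, SRSF2, SRSF3 and SRSF7, which were lower in siHHEX, did not pass between the knockdowns, with differences of -0.29, -0.06, -0.27 and -0.27. After the correction none was lower and 6 were higher (HNRNPA0, HNRNPC, HNRNPD, HNRNPU, SF3B3 and SF3B5), against 3.35% and 5.53% of all genes, and of these SF3B5 was also called higher without it.

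The siTEAD1/2/3/4 group has 1 library and no replicate check, and was not tested. Of the 43 genes, 1 was lower than the siNC mean by over 1.5-fold (U2AF1, uncertain as above) and none was higher, against 2.18% and 4.15% of all tested genes. The median change was -0.024, against 0.060 over all tested genes, and it was -0.18 over the SRSF genes. After U2AF1, at -0.72, the lowest were SRSF2 at -0.46 and SRSF7 at -0.40. The highest were SF3B2 at 0.41, HNRNPLL at 0.32 and SF3A1 at 0.23. HNRNPLL, a regulator of CD45 splicing in lymphocytes, was at 10.4 and 11.5 FPKM in siNC, at 8.21, 10.0 and 8.18 in siHHEX, at 12.8 and 10.8 in siYAP/TAZ and at 13.8 in siTEAD1/2/3/4. SF3A1 was at 31.8 and 34.3 FPKM in siNC, at 34.7, 38.7 and 38.1 in siHHEX, at 32.2 and 33.7 in siYAP/TAZ and at 38.8 in siTEAD1/2/3/4. Both were highest in the TEAD library, though by little for SF3A1.

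The promoters were searched for GGAATG, the core word that TEAD proteins bind, on both strands, in RefSeq windows of equal length around the start in GRCh38. Of 40 of the tested genes with a promoter sequence, 4 held it (HNRNPA0, HNRNPC, HNRNPH1 and HNRNPL), which is 10%, against 14% of 27305 promoters. A match is a description of the sequence and no match says nothing of TEAD binding.

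Genes of the rest of the splicing machinery were counted in 7 lists, to be read against the 16.9% lower and 16% higher of all tested genes in siHHEX. Of the 15 tested SR-related proteins, SR kinases and TRA2 genes, 8 were lower in siHHEX and none higher, with a median change of -0.44. PNN, a component of nuclear speckles, fell from 40.8 ± 1.20 FPKM (SD, n = 2) to 23.0 ± 0.846 (n = 3), and SREK1 from 8.10 ± 0.211 to 4.52 ± 0.893. Of 33 other splicing regulators, 11 were lower and 3 higher, led by PTBP3 at -0.99 and MBNL2 at -0.86 and by RALY at 0.49 and RBM10 at 0.36. Of 17 other U2 and branch site genes, one of which is SF3B6, 6 were lower and 2 higher, with U2SURP at -0.64, DDX46 at -0.57, PHF5A at 0.62 and SUGP1 at 0.34.

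Of 21 genes of the PRP19 complex and the step helicases, 5 were lower and 1 higher, with DHX15 at -0.76, BCAS2 at -0.51 and PRPF19 at 0.39. None of the 10 genes of U1 and the Sm core was lower and 4 were higher, among them SNRPG at 0.56 and SNRPC at 0.34. Of 16 genes of the U4/U6.U5 tri-snRNP none was lower and 2 were higher, CD2BP2 at 0.50 and SART1 at 0.34. Of 17 exon junction and nonsense-mediated decay genes, 1 was lower (SMG1, -0.75) and 1 higher (SMG5, 0.42). With the GC and length correction, when 3.17% of all genes were lower and 3.56% higher in siHHEX, the 8 lower SR-related genes became 0, the 11 lower and 3 higher splicing regulators 2 and 2, the 6 lower and 2 higher U2 and branch site genes 1 and 0, the 5 lower and 1 higher of the PRP19 list 0 and 0, and the 4 higher of U1 and the Sm core 1. The tri-snRNP list then had none in either direction and the decay list 1 lower. Some of these were other genes than before. The lower decay gene was UPF1, at -0.42 (limma adjusted p = 0.0452), and SMG1 was not called (limma adjusted p = 0.0907). The lower U2 and branch site gene was SF1, at -0.35 (limma adjusted p = 0.0495), not called without the correction. In siYAP/TAZ, SNRPB of the U1 and Sm core was lower, at -0.45, and the splicing regulators TAF15 and ESRP1 were higher, at 0.51 and 0.55. After the correction SNRPB and TAF15 were called, at -0.55 and 0.46, and ESRP1 was not, at 0.46 (limma adjusted p = 0.0649). Of the 33 other splicing regulators 4 were then lower and 1 higher, against 6.14% and 5.31% of all genes. Each other list had at most 2 lower and none higher.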

How the data were processed

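Transcript levels of 8 HCT-116 libraries were analysed. Trizol-extracted RNA was sequenced on an Illumina HiSeq, and for each library the authors deposited a list of genes with their FPKM, which scales fragments by gene length and library total. The submitters' processing notes name Trimmomatic 0.36, HISAT2 2.0.5, Cufflinks 2.2.1 and HTSeq 0.9.1 without their roles. The genome build and annotation of the RNA-seq are not given in the sources used here. Read totals were not used here and depth is unknown. The spacing of low values gave a relative depth of 0.924 (siTEAD1/2/3/4) to 1.11 (siHHEX 3) times that of siNC 1, and summed FPKM ranged from 331663 to 383423. Of the rows, 27 were named by a date and were not renamed, and 3754 were at 0 throughout.

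The filter asked for 1 FPKM or more in 2 or more libraries. A single limma model (version 3.58.1, R 4.3.3) with 4 groups and a variance trend was fitted to log2(FPKM + 1) of the 8 libraries, and Benjamini-Hochberg adjustment covered every gene that passed the filter. The study names DESeq, a method for counts, which FPKM values do not allow. The correction removed a smooth trend (splines with 4 degrees of freedom) on GC content and log transcript length of GENCODE 44 transcripts of GRCh38, which covered 99.4% of tested genes. The trend was fitted with an intercept, so that the correction also brought all libraries to a common average level. Tested on simulated data of siHHEX against siNC with 200 of 10677 genes changed by 1 log2 unit, the fit recovered 81% with 15 false calls. A simulated GC trend gave 1617 false calls, and 13 after the correction, which is built to remove such a trend. This does not show whether the correction also removes real changes that follow GC content. Other steps used Python 3.11.15, pandas 2.3.3 and matplotlib 3.10.9.

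The members, the related lists and the tests were chosen with earlier results of these data known. Values in all libraries are given for the 2 most abundant genes of each family, up to 5 called genes with the most negative and 5 with the most positive change, and the 3 lowest and 3 highest in siTEAD1/2/3/4. Of each related list up to 2 called genes per direction are named. One result of these lists that the rule would name is not reported here. Other names belong to complete lists or were chosen after their values were seen. Alternatives were the pseudocount, the filter, scaling, the correction, the groups fitted, the replicate block, the thresholds and leaving out each library.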

Additional observations from a re-analysis of the deposited data

Results flagged for a closer look

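In 7 of the 43 genes, every siHHEX library lay on one side of the siNC mean and every siYAP/TAZ library on the other, and the difference between the knockdowns passed the limma test, as in 18.3% of all tested genes. The share among the 43 was not above that of all genes, and the 7 were picked by the differences given here. On the log2(FPKM + 1) scale, siHHEX minus siYAP/TAZ was 0.81 for SF3B5, 0.59 for U2AF2, 0.54 for SF3A2 and 0.33 for HNRNPL, and it was -0.39 for SF3A3, -0.37 for SRSF5 and -0.36 for HNRNPH3. Of these, SF3B5 was also called against siNC in siHHEX, and the others were called in neither knockdown against siNC. With the GC and length correction, SF3B5 was called between the knockdowns and the other six genes were not.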

How the results depend on the processing

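The counts of called genes among the 43 depended on the setting, and the causes were not tested. In siHHEX, 15 lower became 7 without the filter on low values (16276 genes tested), 1 with the GC and length correction, 3 at an adjusted p under 0.01 and 0 by the study's criterion, a fold over 2 with a p under 0.05, taken here as unadjusted. Without the filter 5.35% of all genes were lower, at an adjusted p under 0.01 3.20% and by the study's criterion 0.93%. Instead of the 2 higher genes SF3B2 and SF3B5, 1 other gene, HNRNPC, was higher with the correction. At an adjusted p under 0.01, 1 was higher, and by that criterion 0. In these settings 3.56%, 3.92% and 0.70% of all genes were higher. In siYAP/TAZ, 0 lower became 4 with median scaling, 6 with the correction and 7 when only the compared groups were fitted. All genes then gave 3.23%, 6.14% and 5.05% lower. Fitting only the compared groups also made 1 higher, against 11.4% of all genes. Between the knockdowns, 16 became 6 with the correction, of which only SF3B5 was among the 16. The count was 10 when only these groups were fitted, 6 at an adjusted p under 0.01 and 0 by the study's criterion. In the first 3 of these, 3.35%, 18.6% and 7.60% of all genes were lower in siHHEX than in siYAP/TAZ. Those higher were 5.53%, 9.45% and 5.08%. By the study's criterion 1.28% of all genes were lower and 0.23% higher.

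Deviations of same-numbered libraries from their group means had correlations from -0.0704 to 0.0215. In groups of 2 libraries these deviations mirror each other, and the siRNAs differ within each knockdown group. The correlations therefore cannot show whether the labels' numbers pair the libraries. With the replicate number as a block, 9 were lower in siHHEX, 1 in siYAP/TAZ (2.36% of all genes), and 10 differed between the knockdowns (18.0% of all genes lower, 9.49% higher). With the replicate block and the correction, none was lower or higher in siHHEX (0 of 43), 3 were lower in siYAP/TAZ (4.60% of all genes) and 0 differed between the knockdowns. In siHHEX all genes gave 1039 lower and 1023 higher calls with the block, and 100 and 65 with both.

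Leaving out 1 library at a time gave 0 to 23 lower and 0 to 2 higher in siHHEX, 0 to 5 lower and 0 to 1 higher in siYAP/TAZ, 3 to 26 between the knockdowns and 0 to 1 past 1.5-fold in siTEAD1/2/3/4. Without siHHEX 2, 23 were lower, and without siHHEX 1, 9, when 24.9% and 9.08% of all genes were. Without siYAP/TAZ 2, 3 differed between the knockdowns, without siYAP/TAZ 1 or siHHEX 1, 8, without either control, 10, and without siHHEX 2, 26. In siYAP/TAZ, 5 were lower without siHHEX 2, 4 without siHHEX 3 and 1 without siYAP/TAZ 1, when 3.46%, 3.16% and 2.16% of all genes were. Between the knockdowns, the share of all genes lower in siHHEX ranged from 5.79% without siYAP/TAZ 2 to 31.9% without siHHEX 2.

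The median change in siHHEX was -0.12 with the correction and -0.085 with block and correction, and -0.35 to -0.21 over the left-out libraries. In siYAP/TAZ it was -0.19 with median scaling, with the correction and with both block and correction, and -0.12 to -0.070 over the left-out libraries. In siTEAD1/2/3/4 it was -0.086 with median scaling, and -0.032 to -0.013 over the left-out libraries. The sign turned in siHHEX for HNRNPA2B1 (0.0262 with the correction, 0.0172 with block and correction), HNRNPK (0.0434 and 0.0055) and HNRNPR (0.0070 with both), and for U2AF1 in siTEAD1/2/3/4 without siNC 1 (0.33, against -1.77 without siNC 2). All 17 calls in siHHEX were also made with a pseudocount of 0.1. FPKM without read totals give no counting error, which limits what can be said of low genes such as U2AF1 and HNRNPH2.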
